A study of Homo sapiens with 9 samples.

Results

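The genes described here are the retinoic acid receptors RARA, RARB and RARG, the retinoid X receptors RXRA, RXRB and RXRG, and 4 genes of retinoid handling, CRABP1, CRABP2, CYP26A1 and CYP26B1. The 10 genes were chosen by name, and each was read from the probe that carries its symbol alone, taking the probe with the highest mean over the 9 arrays where a gene had several. A probe of this array is a set of short oligonucleotides spread over 1 transcript. By that rule 8 of the 10 genes were measured, of 18417 genes on the array. RARA was carried only by a probe shared with another gene, so no value is given for it, and CRABP1 was not analysed here.

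The arrays came from MDA-MB-231, a mesenchymal human breast cancer cell line that lacks hormone receptors and HER2 amplification (triple negative breast cancer, TNBC). Cells were left untreated (UT), given a scrambled peptide (SCR), or given the SID peptide at 2.5 µM for 24 h, with 3 arrays in each group. SID joins a cell-penetrating TAT stretch to the Sin3 interaction domain of MXD1, a short helix of the kind by which transcription factors bind the PAH2 domain of SIN3, the scaffold of a histone deacetylase complex. SCR stands as the peptide control, at the same dose by the methods of the study, and UT received no peptide. All 9 cultures were of 1 cell line. Each array read RNA from a whole culture, so fewer cells holding a transcript and less of it in each cell cannot be told apart. Values are log2 signals, so a difference of 1 is a 2-fold change.

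Retinoic acid made from dietary retinol binds the RARs, which sit on DNA as heterodimers with an RXR. Without ligand the pair holds corepressors with histone deacetylase activity, and ligand exchanges them for coactivators. CRABP2 carries retinoic acid to the receptors in the nucleus, whereas the CYP26 enzymes oxidise it, and RARB and CYP26A1 are themselves classical retinoic acid target genes. In breast cancer cells loss of RARB expression is common.

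RAR-RXR heterodimers bind direct repeats of a 6-base half-site, best known with a spacing of 5 bases (DR5). The half-sites AGGTCA and AGTTCA, together with the variants GGGTCA and its relative GGTTCA, were searched on both strands in RefSeq promoter windows of GRCh38.p14, from 250 bases before to 50 bases after each start, and all 10 genes had at least 1 window (18 in all). A DR5 of these letters was present in 31 of 35116 windows (0.0883%), and 2 of the 10 genes held one, RARB in a window on chromosome 3 and CYP26A1 on chromosome 10. A single half-site, by contrast, was found in 38.6% of all windows and in 6 of the 10 genes. The 250 bases upstream of the RARB start (chr3:25428013-25428262, plus strand, the strand of the gene) are shown because RARB gave the largest difference between untreated and peptide-treated cells of the RARs measured, with the DR5 half-sites in capitals. The gene spans chr3:24829321-25597932, and this start, in 1 of its 4 windows, lies inside that span.
RARB upstream: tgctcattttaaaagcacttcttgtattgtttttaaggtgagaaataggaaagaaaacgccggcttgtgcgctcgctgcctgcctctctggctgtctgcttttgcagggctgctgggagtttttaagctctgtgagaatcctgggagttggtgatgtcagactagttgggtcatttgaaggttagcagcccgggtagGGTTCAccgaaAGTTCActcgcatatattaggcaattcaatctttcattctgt
The DR5 stretches of both genes follow for comparison, again with the half-sites in capitals. The RARB repeat lay 53 to 37 bases before the start (stretch chr3:25428204-25428232, plus strand) and the CYP26A1 repeat 90 to 74 bases before it (stretch chr10:93073797-93073825, read on the minus strand, opposite to the gene). The CYP26A1 gene spans chr10:93073475-93077885, so its repeat and the start used, in 1 of its 2 windows, also lie inside the gene.
RARB DR5: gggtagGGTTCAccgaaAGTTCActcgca
CYP26A1 DR5: acaattAGTTCAcccaaAGTTCAtcttta
Both repeats share the half-site AGTTCA at their downstream end as printed. They are matches of letters, and binding was not measured here. A direct repeat with 1 base between half-sites occurred in 0.131% of windows, one with 2 bases in 0.0399%, and neither occurred in the 10 genes.

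The arrays fell into 2 sets that do not follow the groups. SCR and SID replicates 1 and 2 stood apart from SCR and SID replicate 3 and the 3 UT arrays. Pearson correlations over the tested probes were 0.908 to 0.929 between the sets and 0.992 to 0.997 within the set that holds UT. On a principal component analysis the leading axis held 78.5% of the variance and split the arrays in the same way. The labels give 24 h for all arrays, whereas a supplementary table of the study heads SCR replicate 3 with 72 h and names the replicate 3 columns differently from replicates 1 and 2. No source calls the sets batches, and the mesenchymal marker CD44 also separated them (10.68 to 10.84 against 13.17 to 13.25). The vimentin gene VIM was high throughout and separated the sets by less (12.75 to 13.01 against 13.19 to 13.34). Log2 signals of the receptors by whose absence TNBC is defined were 6.76 to 7.23 for ESR1, 5.61 to 5.75 for PGR and 9.15 to 9.64 for ERBB2. Without detection calls these values do not show absence. Markers of other cell types also moved between the sets, with PECAM1 (endothelial) at 5.73 to 6.18 in the UT set and 6.33 to 7.96 in replicates 1 and 2, and COL1A1 (fibroblast) at 9.11 to 9.29 and 8.66 to 8.74. Log2 signals of PTPRC, CD3E, DCN and VWF lay between 4.84 and 6.39 on all arrays. Of these, DCN (fibroblast) was at 5.65 to 6.24 in the UT set and 5.4 to 5.55 in replicates 1 and 2. SID and SCR are therefore compared over all 9 arrays, within an array set, or both. The set of replicates 1 and 2 holds no UT array, so comparisons of those replicates with UT cross the sets.

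Over all 9 arrays, no retinoid gene differed between SID and SCR, SID and UT, or SCR and UT by the criterion used (limma, Benjamini-Hochberg adjusted p under 0.05 and more than 1 on the log2 scale). The background was 0% of 19460 probes in each comparison. At an unadjusted p under 0.05, 1474 probes (7.57%) differed between SID and SCR, 2432 (12.5%) between SID and UT, and 2811 (14.4%) between SCR and UT. A two-group test without moderation gave 378, 1715 and 1794 probes at that level and 0 after adjustment in each. Within replicates 1 and 2, 379 probes were higher in SID than in SCR (1.95%) and 645 lower (3.31%), and none of the 8 measured retinoid genes was among them. In replicate 3, which had 1 array per peptide and borrowed its spread from the other arrays, 0 probes passed and 520 (2.67%) had an unadjusted p under 0.05.

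**Figure D1:**
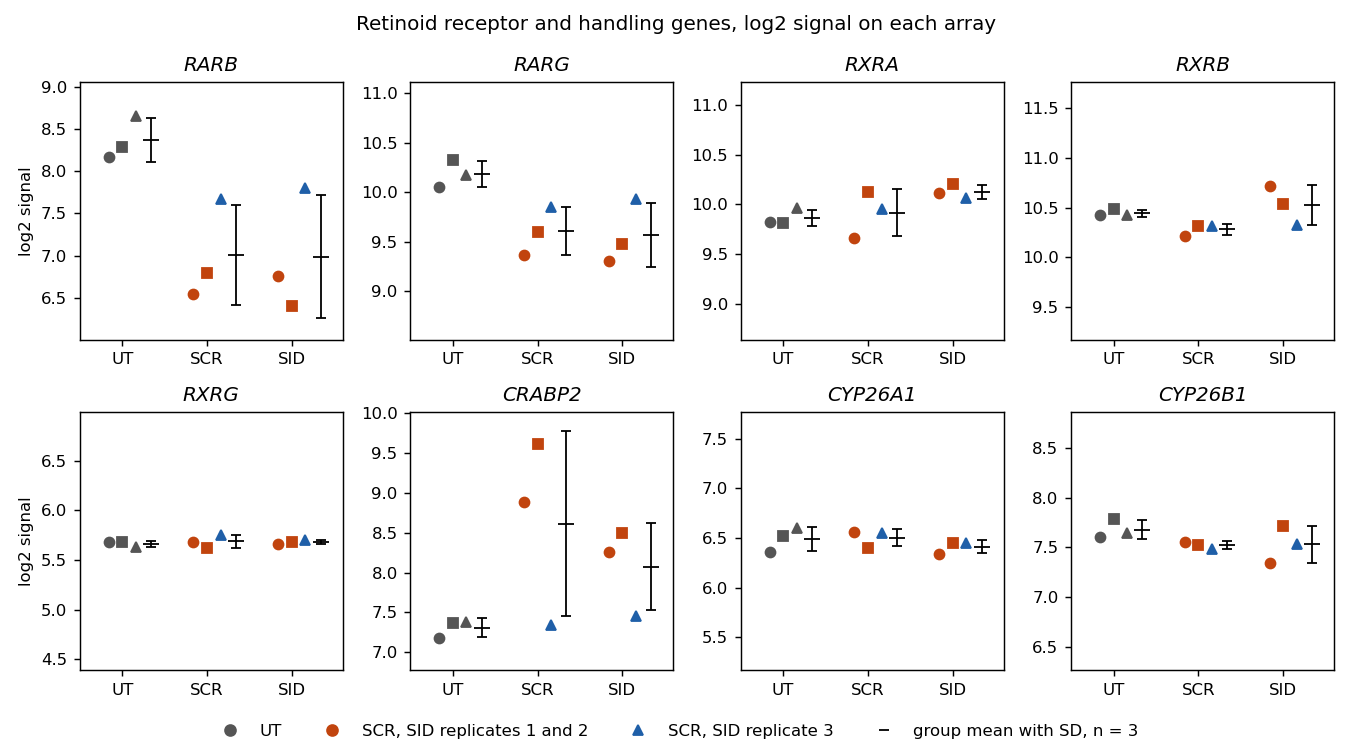
Log2 signal of the 8 measured retinoid genes on each of the 9 arrays, in UT, SCR and SID, with the mean and SD of each group (n = 3) beside the points (circles replicate 1, squares replicate 2, triangles replicate 3). All panels span at least 2.6 log2 units, and RARB and CRABP2 had the widest ranges, with replicate 3 of both peptides nearer to UT than replicates 1 and 2.

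RARB, the receptor whose own gene carries a retinoic acid response element, read lower on the peptide arrays than on the UT arrays. The difference from UT did not pass over 9 arrays, and RARB did not separate SID from SCR. Its log2 signal was 8.17, 8.28 and 8.66 on the UT arrays, 6.55, 6.80 and 7.67 on the SCR arrays, and 6.76, 6.41 and 7.81 on the SID arrays. All 6 peptide arrays were below all 3 UT arrays, and within both peptides replicate 3 was the highest. This order, all peptide arrays below UT, held for RARB and RARG among the 8 genes and for 5.58% of all tested probes. Both genes also had replicates 1 and 2 of both peptides below all other arrays, as did 15.4% of tested probes.

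Group means of RARB were 8.37 ± 0.26 in UT, 7.01 ± 0.59 in SCR and 6.99 ± 0.73 in SID (SD, n = 3). Over 9 arrays RARB differed from UT by -1.38 with SID (SE 0.41, limma adjusted p = 0.388) and by -1.36 with SCR (SE 0.41, adjusted p = 0.332), 2 comparisons that share the UT arrays. Neither passed, and the spread within each peptide group was mainly between replicate 3 and the other arrays. Against UT, replicates 1 and 2 alone gave -1.79 with SID (adjusted p = 0.000106) and -1.70 with SCR (adjusted p = 0.000164), and both passed. Leaving out any single array of these, UT included, moved the SID value between -1.96 and -1.61 and the SCR value between -1.82 and -1.55, and both still passed. Replicate 3, in the set that holds UT, gave -0.56 with SID (adjusted p = 0.441) and -0.70 with SCR (adjusted p = 0.529), which did not pass. The difference in replicates 1 and 2 crosses the array sets, so peptide and set cannot be told apart in it. With the array set as a block the values were -0.64 (adjusted p = 0.647) and -0.62 (adjusted p = 0.393). In these comparisons across the sets, 6.93% of probes were higher and 6.4% lower with SID, and 6.58% and 4.82% with SCR. RARB and CRABP2, 2 of the 8 genes, passed in each.

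Between the peptides RARB differed by -0.02 over 9 arrays, with a 95% interval of -0.98 to 0.94 that leaves room for nearly 2-fold in either direction. By replicate, SID minus SCR was 0.20, -0.39 and 0.14, so the sign was not shared. Within replicates 1 and 2 the difference was -0.09, with the narrower interval of -0.53 to 0.34 (adjusted p = 0.788).

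RARG, the RAR best known from skin, followed the same order with smaller differences. Its log2 signal was 10.05, 10.32 and 10.18 in UT, 9.37, 9.59 and 9.85 in SCR, and 9.30, 9.48 and 9.93 in SID. Again every peptide array was below every UT array, and replicate 3 of each peptide was the nearest to UT. Over 9 arrays the difference from UT was -0.61 with SID (SE 0.19, adjusted p = 0.388) and -0.58 with SCR (SE 0.19, adjusted p = 0.332). In replicates 1 and 2 it was -0.79 (adjusted p = 0.001) and -0.70 (adjusted p = 0.00204), short of 1 on the log2 scale, and in replicate 3 it was -0.25 and -0.33. SID and SCR differed by -0.03 (95% interval -0.47 to 0.40) over 9 arrays, and by -0.06, -0.12 and 0.08 in the 3 replicates.

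**Figure D2:**
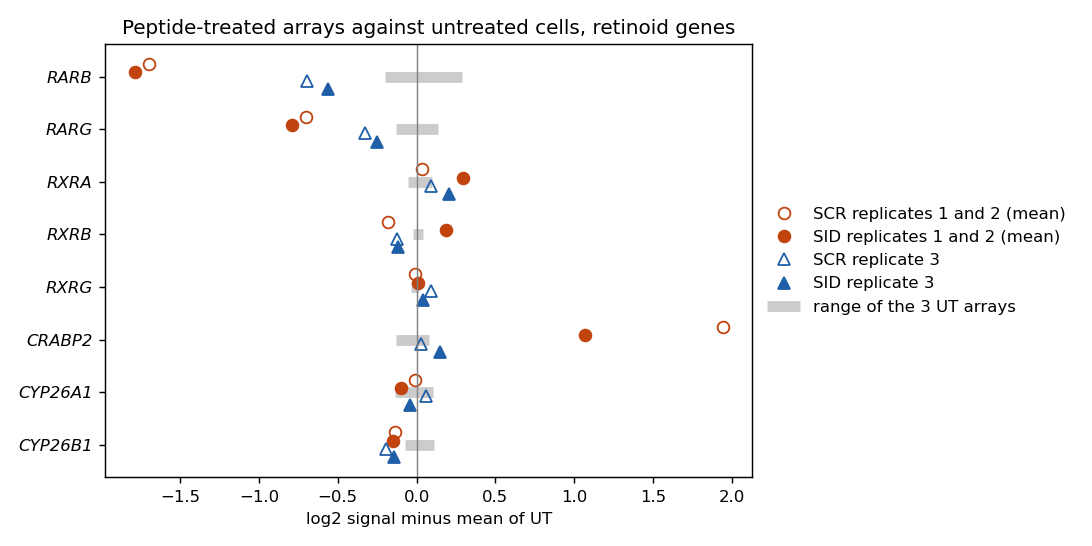
Log2 signal of each retinoid gene minus the mean of the 3 UT arrays, for the mean of replicates 1 and 2 (circles) and for replicate 3 (triangles) of SCR (open) and SID (filled), with the range of the UT arrays in grey. RARB and RARG lay left of the UT range for both peptides in both sets, whereas CRABP2 lay far right of it in replicates 1 and 2, at 1.94 with SCR and 1.07 with SID, and within 0.15 of the UT mean in replicate 3.

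RXRA and RXRB, the common heterodimer partners, were the members whose SID value was above the SCR value in all 3 replicates, for RXRB on 2 of its 3 probes. A single sign in all 3 replicates, in either direction, was found for 26.8% of tested probes. RXRA read 9.82, 9.81 and 9.96 in UT, 9.67, 10.13 and 9.96 in SCR, and 10.11, 10.21 and 10.07 in SID. The SID arrays were above all UT arrays, as for CRABP2 and for 10.7% of tested probes, and overlapped SCR, whose replicate 2 was high. SID minus SCR was 0.21 (SE 0.12, adjusted p = 0.692, 95% interval -0.07 to 0.49), with 0.45, 0.08 and 0.11 by replicate.

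RXRB read 10.42, 10.48 and 10.42 in UT, 10.21, 10.31 and 10.32 in SCR, and 10.72, 10.54 and 10.32 in SID. It was the single member with all SID arrays above all SCR arrays, an order that 4.01% of tested probes showed, but in replicate 3 the values differed by only 0.0025. On another of the 3 RXRB probes SID replicate 3 was below SCR replicate 3 (10.32 against 10.35, a difference of -0.03), so the order and the shared sign did not hold there. SID minus SCR was 0.25 over 9 arrays (SE 0.10, adjusted p = 0.657) and 0.37 in replicates 1 and 2 (SE 0.09, adjusted p = 0.0257), below the 2-fold limit, where 11.2% of probes were higher at an adjusted p under 0.05. The adjusted p was 0.121 with the replicate number as a block on these 4 arrays, and it was 0.0332 to 0.112 when 1 of them was left out, above 0.05 without SCR replicate 1 (0.109), SCR replicate 2 (0.0548) or SID replicate 1 (0.112). The 3 RXRB probes gave 0.37 to 0.39 in replicates 1 and 2, and because they read nearly alike they count as 1 measurement. Relative to UT, RXRB was 0.19 higher with SID and 0.18 lower with SCR in those replicates, neither past the adjusted threshold (adjusted p = 0.129 and 0.151).

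RXRG, the RXR of muscle and brain, was dim and nearly flat. Its log2 signal ranged from 5.63 to 5.75, and UT replicates 1 and 2, SCR replicate 1 and SID replicate 2 held the same value, 5.68. Such a value shared by at least 4 arrays occurred in 1199 of the tested probes. SID minus SCR was -0.0042 (95% interval -0.15 to 0.14), and the groups overlapped.

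CRABP2, the carrier that delivers retinoic acid to the nuclear receptors, had the widest range of the 8 genes, 2.44 log2 units. Its log2 signal was 7.18, 7.37 and 7.39 in UT, 8.89, 9.61 and 7.34 in SCR, and 8.26, 8.50 and 7.46 in SID. Replicates 1 and 2 of both peptides were above all UT arrays, with SCR above SID in both, while replicate 3 of both was within 0.15 of the UT mean. The order of replicates 1 and 2 above all other arrays was also that of 16.6% of tested probes.

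Over 9 arrays CRABP2 was 8.61 ± 1.16 in SCR, 8.07 ± 0.54 in SID and 7.31 ± 0.12 in UT (SD, n = 3), and no pair of groups passed. SID minus SCR was -0.54 (SE 0.54, adjusted p = 0.864, 95% interval -1.81 to 0.73). In replicates 1 and 2 it was -0.87 (SE 0.22, adjusted p = 0.0237, 1.83-fold lower in SID), short of the 2-fold limit, where 13.7% of probes were lower at an adjusted p under 0.05. With the replicate block on those arrays the adjusted p was 0.0209. CRABP2 passed both limits without SCR replicate 1 (-1.23, adjusted p = 0.00685), whereas the adjusted p was 0.0677 without SCR replicate 2 (-0.51), 0.0978 without SID replicate 1 (-0.75) and 0.0588 without SID replicate 2 (-0.99). In replicate 3 SID minus SCR was 0.12, and the test of the difference between the sets gave -0.99 (SE 0.38, adjusted p = 0.162), so the sets were not shown to differ. Between the sets 1.72% of probes passed as higher and 3.15% as lower, and 0 of the 8 retinoid genes were among them.

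Against UT, CRABP2 in replicates 1 and 2 was 1.94 higher with SCR (adjusted p = 0.00018) and 1.07 higher with SID (adjusted p = 0.00346), both past the criterion. The SID value fell just below the fold limit without SID replicate 2 (0.95, adjusted p = 0.0292). In replicate 3 the differences were 0.03 with SCR and 0.15 with SID. As for RARB, peptide and array set cannot be told apart in the former values, and with the set as a block the difference was -0.18 with SID (adjusted p = 0.968) and 0.36 with SCR (adjusted p = 0.691).

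The retinoic acid hydroxylases CYP26A1 and CYP26B1 gave small differences. CYP26A1 read 6.36, 6.52 and 6.60 in UT, 6.56, 6.40 and 6.55 in SCR, and 6.34, 6.45 and 6.45 in SID, and the groups overlapped. SID minus SCR was -0.09 (95% interval -0.29 to 0.11), an interval that stops well short of a 2-fold change. Like RXRG, its probe was in the dimmest 25% of those tested. CYP26B1 read 7.60, 7.79 and 7.64 in UT, 7.56, 7.53 and 7.48 in SCR, and 7.34, 7.72 and 7.53 in SID. SCR was below UT on all arrays, as were RARB, RARG and RXRB and 12% of tested probes, while SID overlapped both, and SID minus SCR was 0.01 (95% interval -0.24 to 0.25).

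**Figure D3:**
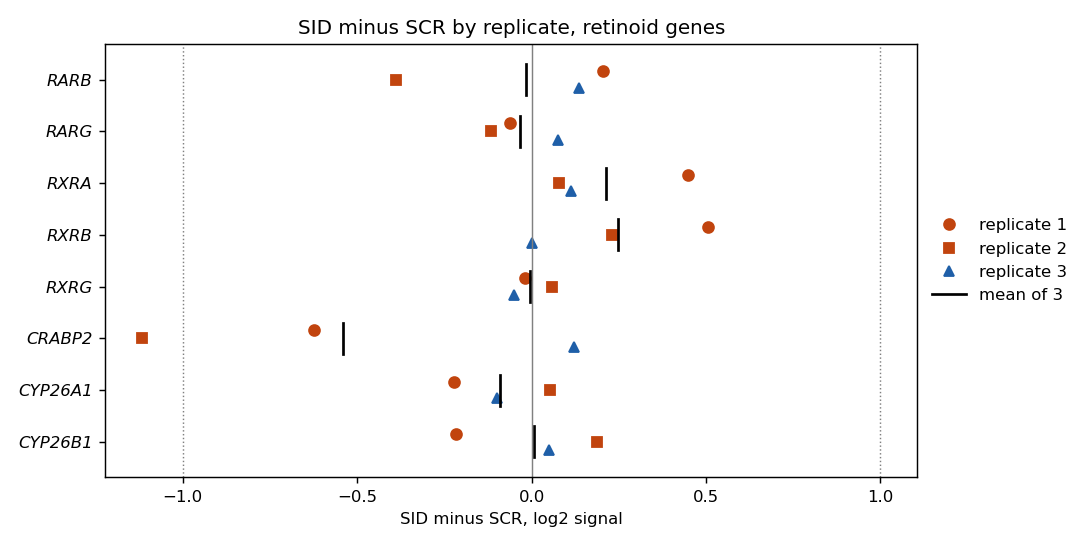
SID minus SCR in log2 signal for each of the 8 retinoid genes, by replicate, with the mean of the 3 as a black line and dotted lines at a 2-fold change. Only CRABP2 in replicate 2 went beyond a 2-fold change, at -1.12, and replicate 3 lay between -0.10 and 0.14 for all 8 genes.

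RARB and CRABP2 were the members that ranged most over the arrays, and the genes most like them followed the same array sets. RARB correlated with IL20RB (r = 0.992), LTBP1 (0.991) and LUZP2 (0.991) over the 9 arrays, and with RARG at 0.947. CRABP2 went with RPH3AL (0.996), GATA3 (0.991) and TMEM106A (0.991), and against RARB at -0.824. GATA3, a luminal transcription factor, read 7.12, 7.44 and 7.54 in UT, 9.55, 10.05 and 7.48 in SCR, and 8.74, 8.80 and 7.36 in SID. Replicates 1 and 2 of both peptides had the order seen for CRABP2, whereas SID replicate 3 was below SCR replicate 3, unlike in CRABP2. These correlations describe 9 arrays that share 2 sets, and no test was made of them.

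Of 29 genes with a DR5 in a promoter window, RARB and CYP26A1 included, 15 were measured. In the SID to SCR comparison 5 were higher and 10 lower, with a median of -0.02 beside 0.02 for all tested probes, and 0 were called. Of all tested probes 55.2% were higher and 0% were called. In replicates 1 and 2, 6 were higher and 9 lower with a median of -0.05 beside 0.04, and again 0 were called. There 58.1% of all tested probes were higher, and 1.95% were called as higher and 3.31% as lower.

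The wider retinoid pathway was read from 5 lists, with 86 of 102 genes measured. Over 9 arrays 0 of the 86 passed between SID and SCR. The 20 pathway genes named here were chosen partly for a large SID minus SCR value. How many of them pass another fit partly restates that choice. Array weights gave SCR and SID replicate 3 the lowest weights of the 9 arrays (0.18 and 0.14), with 1 warning of incomplete convergence. With array weights 7 of the 20 passed between SID and SCR (ALDH1A3 -1.37, CYP1B1 1.31, MEIS2 -1.28, NRIP1 -1.22, PPARA 1.16, RARRES2 1.01 and VDR -1.51). There 324 of all 19460 tested probes passed as higher and 437 as lower. Without SID replicate 3, 4 passed (FOXA1 -1.25, MEIS2 -1.90, RARRES2 1.08 and VDR -1.55), where 279 of all tested probes passed as higher and 369 as lower. Without SCR replicate 3, 1 passed (ALDH1A3 -1.70), where 63 and 160 of all tested probes did. In replicates 1 and 2, 4 of the 86 passed as higher and 6 as lower in SID, where 1.95% and 3.31% of all tested probes did. At an adjusted p under 0.05 alone, 13 were higher and 13 lower, where 11.2% and 13.7% of all tested probes were. None passed in replicate 3. The median over all tested probes was 0.04 in replicates 1 and 2, and it was 0.09 over the uptake and carrier list and 0.02 over the metabolism list.

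Against UT, replicates 1 and 2 gave larger differences in this pathway, which cross the array sets. With SID 8 of the 86 genes passed as higher and 11 as lower, and with SCR 8 and 10, where 6.93% and 6.4% and then 6.58% and 4.82% of all tested probes did. Those farthest from UT with SID, chosen after their values were seen, were PLAT, the tissue plasminogen activator gene, at 4.73 above UT (3.90 with SCR), PLAAT4, a retinoid-induced gene, at 3.69 (3.30 with SCR), and PRAME, a repressor of RAR signalling, at -3.90 (-3.94 with SCR). The transcription factor gene TFAP2A was at -3.38 (-2.66 with SCR) and RDH10, which oxidises retinol to retinal, at -2.78 (-2.51 with SCR). In replicate 3, within the UT set, 0 of the 86 passed with either peptide. PRAME read 10.61, 10.50 and 10.61 in UT, 6.75, 6.51 and 10.33 in SCR, and 6.64, 6.70 and 10.23 in SID, and so separated replicates 1 and 2 of both peptides from all other arrays.

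Among uptake and carrier genes, 0 of 8 measured passed between SID and SCR in replicates 1 and 2 (1.95% of all tested probes passed as higher and 3.31% as lower). STRA6, the retinol uptake receptor, read 8.95, 9.21 and 9.41 in UT, 8.18, 8.45 and 9.35 in SCR, and 8.12, 7.74 and 9.60 in SID. Replicates 1 and 2 of both peptides were low, and SID minus SCR was -0.38 there (adjusted p = 0.189). The binding proteins RBP2, RBP3, RBP4 and RBP5 differed by -0.12 (RBP5) to 0.18 (RBP3) in those replicates.

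Of 24 measured genes of retinoid metabolism, 1 rose and 1 fell in replicates 1 and 2, beside 1.95% and 3.31% of all tested probes. CYP1B1, a cytochrome P450 able to oxidise retinol, read 10.82, 10.42 and 10.69 in UT, 12.01, 11.60 and 10.02 in SCR, and 13.25, 13.25 and 10.18 in SID. It was highest in SID replicates 1 and 2, with SID minus SCR of 1.44 (SE 0.17, adjusted p = 0.00114). ALDH1A3, which makes retinoic acid from retinal, read 8.84, 9.06 and 9.10 in UT, 10.93, 11.36 and 8.98 in SCR, and 9.48, 9.98 and 8.86 in SID. Both peptides were above UT in replicates 1 and 2 and SCR more so, giving -1.41 between them (SE 0.20, adjusted p = 0.00242), but the other of the 2 ALDH1A3 probes gave 0.16. DGAT1, which can esterify retinol, differed by 0.63 (adjusted p = 0.0204), and the aldo-keto reductase AKR1B10 by 0.29 (adjusted p = 0.417).

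Of 25 measured retinoic acid target genes, 1 rose and 3 fell in replicates 1 and 2 (1.95% and 3.31% of all tested probes), with a median of 0.05 beside 0.04 for all tested probes. RARRES2, the chemerin gene and a retinoid-induced gene of skin, read 7.82, 8.09 and 7.91 in UT, 8.22, 8.14 and 8.12 in SCR, and 9.25, 9.22 and 8.12 in SID. SID replicates 1 and 2 stood above all other arrays, at 1.06 over SCR (SE 0.10, adjusted p = 0.000673). The homeobox gene MEIS2 read 10.15, 9.93 and 10.30 in UT, 8.88, 8.79 and 10.30 in SCR, and 7.63, 7.22 and 10.54 in SID, lowest in SID replicates 1 and 2, with SID minus SCR of -1.41 (SE 0.16, adjusted p = 0.00113). FOXA1, a luminal pioneer factor, differed by -1.05 (SE 0.16, adjusted p = 0.00323), and fell short of the fold limit without SCR replicate 2 (-0.80) or SID replicate 1 (-0.97).

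The other target gene that passed as lower in SID than in SCR, NRIP1, encodes a ligand-dependent corepressor and is also in the list of coregulators. It read 10.08, 9.83 and 10.15 in UT, 11.14, 11.38 and 10.15 in SCR, and 10.11, 8.93 and 10.19 in SID, so SCR replicates 1 and 2 were high and SID replicate 2 low. SID minus SCR in replicates 1 and 2 was -1.74 (SE 0.33, adjusted p = 0.00813), with -1.02 and -2.45 by replicate, and the adjusted p was 0.0625 without SCR replicate 2 and 0.0661 on these 4 arrays alone.

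Of 17 measured coregulators of nuclear receptors, 0 rose and 2 fell in replicates 1 and 2, NRIP1 and GPS2 (1.95% and 3.31% of all tested probes). At an adjusted p under 0.05 alone 6 were lower and 1 higher, where 13.7% and 11.2% of all tested probes were. The median was -0.24 beside 0.04 for all tested probes. GPS2, a subunit of the NCOR corepressor complex, read 9.72, 9.75 and 9.82 in UT, 10.47, 10.78 and 10.00 in SCR, and 9.71, 9.51 and 10.23 in SID. SCR replicates 1 and 2 were the highest, and SID minus SCR was -1.01 (SE 0.12, adjusted p = 0.00143), short of the fold limit after median centring (-0.98), after quantile normalization (-0.96), without SCR replicate 2 (-0.86) or without SID replicate 2 (-0.92). MED1, the Mediator subunit that meets liganded receptors, differed by -0.98 (adjusted p = 0.00671), and passed without SCR replicate 1 (-1.03) or SID replicate 1 (-1.28). TBL1X, another NCOR complex subunit, was the 1 higher gene at 0.71 (adjusted p = 0.00523). In replicate 3, with 1 array per peptide, 16 of the 17 coregulators were higher in SID and 1 lower, with a median of 0.18. Over all tested probes 52.5% were higher there, with a median of 0.01.

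The peptide's intended partner, SIN3A, read 11.11, 11.05 and 11.24 in UT, 10.59, 10.74 and 11.20 in SCR, and 10.53, 10.32 and 11.26 in SID, with SID minus SCR of -0.14 over 9 arrays (adjusted p = 0.947) and -0.24 in replicates 1 and 2 (adjusted p = 0.182). Its paralogue SIN3B differed by 0.09 (adjusted p = 0.844) and 0.07 (adjusted p = 0.714).

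Of 15 measured RXR partners and competing receptors, 2 rose and 1 fell in replicates 1 and 2 (1.95% and 3.31% of all tested probes), with a median of 0.27 beside 0.04 for all tested probes. VDR, the vitamin D receptor, read 8.96 to 9.03 in UT, 9.16, 9.32 and 9.08 in SCR, and 7.62, 7.66 and 9.32 in SID. SID replicates 1 and 2 lay below all other arrays by more than 1 on the log2 scale, at -1.60 from SCR (SE 0.09, adjusted p = 0.000112). PPARA, the fatty acid receptor, read 9.34, 9.54 and 9.49 in UT, 8.34, 8.68 and 8.94 in SCR, and 9.61, 9.67 and 8.75 in SID. It was low in SCR replicates 1 and 2, where SID was 1.13 higher (SE 0.13, adjusted p = 0.00105), or 0.97 without SCR replicate 1.

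The orphan receptor NR4A2 read 10.02, 9.69 and 9.91 in UT, 7.27, 7.21 and 9.48 in SCR, and 8.01, 8.48 and 10.23 in SID. Its SID value was above SCR in each replicate, by 0.74, 1.27 and 0.75, and the difference in replicates 1 and 2 was 1.01 (SE 0.17, adjusted p = 0.00447), below the fold limit without SCR replicate 2 (0.98) or SID replicate 2 (0.77). PPARD differed by 0.87 (adjusted p = 0.00275), with 0.95, 0.80 and 0.40 by replicate, and passed without SCR replicate 2 (1.03).

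**Figure D4:**
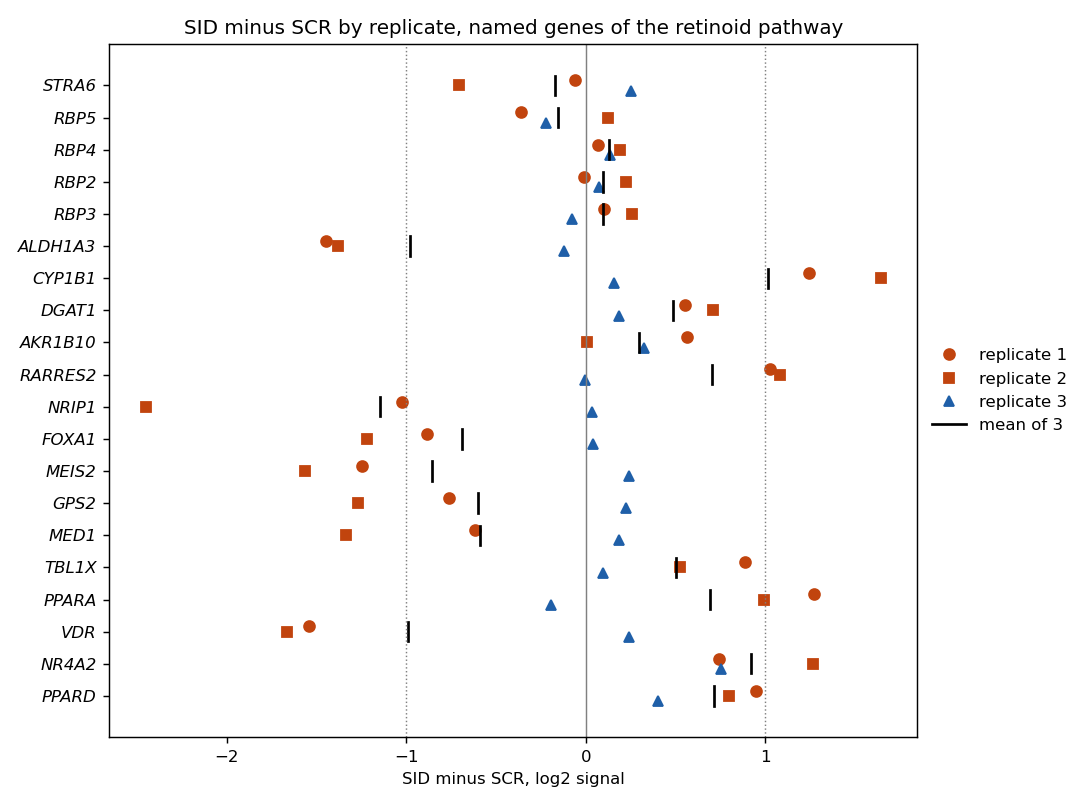
SID minus SCR in log2 signal by replicate for 20 genes of retinoid uptake, metabolism, response, coregulation and RXR partnership, with the mean of the 3 as a black line and dotted lines at a 2-fold change. VDR, NRIP1, MEIS2 and ALDH1A3 lay beyond -1 and CYP1B1 and RARRES2 beyond 1 in replicates 1 and 2, while in replicate 3 no gene passed 1 in either direction and NR4A2, at 0.75, was the farthest from 0.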

How the data were processed

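The deposited values were per-probe log2 signals from Affymetrix Human Gene 1.0 ST arrays. The submitters' processing notes name RMA, Affymetrix Expression Console and Transcriptome Analysis Console without roles. The log2 scale was read from the values (3.75 to 14.94, array medians 7.68 to 7.77), and no detection calls were used. The study's single-probe analysis could not be repeated on these values. Its methods speak of 2 replicates, whereas the labels give 3 independent ones.

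Of 33297 probes, 19460 carried 1 gene symbol by the platform annotation, 1754 several and 12083 none. Those 19460 were fitted together with limma 3.58.1 (R 4.3.3) without further normalization, as 3 group means for the comparisons of SID, SCR and UT, and as 5 means (UT, and replicates 1 and 2 or replicate 3 of each peptide) for values within array sets. A call required a Benjamini-Hochberg adjusted p under 0.05 over all 19460 probes and a difference above 1 or below -1. The number of arrays limits the precision. The scripts were tested on simulated data built without the separation of the array sets. That test does not show what the fits over 9 arrays could detect here. Same-numbered SCR and SID arrays deviated together (r = 0.774, 0.575 and 0.791), and so did replicates 1 and 2 with unlike numbers (0.748 and 0.604). The main fits have no pairing, and a replicate block was fitted beside them. The members, gene lists and array sets were chosen with earlier results of these data known. All 8 measured members were named. From each list came the genes called in one of the comparisons of SID with SCR, of each with UT over 9 arrays, or between array sets. Each list also gave the 4 genes with the largest absolute SID minus SCR difference over 9 arrays and the 2 with the largest in replicates 1 and 2. SIN3A and SIN3B, the paralogues that the peptide concerns, and the genes farthest from UT were added after their values were seen.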

Additional observations from a re-analysis of the deposited data

Results flagged for a closer look

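No retinoid receptor or handling gene measured here differed between the array sets in its SID minus SCR value by the adjusted test. Pathway genes were named partly for passing this same test together with the fold limit. They were also named partly for a large SID minus SCR value in replicates 1 and 2, the same arrays that enter it. The results below therefore partly restate that choice, and their number is not to be set against a background. These genes passed the test (limma, difference of replicates 1 and 2 minus replicate 3). VDR differed by -1.84 (SE 0.15, adjusted p = 0.00333), from -1.60 in replicates 1 and 2 to 0.24 in replicate 3. MEIS2 differed by -1.65 (SE 0.28, adjusted p = 0.0181), from -1.41 to 0.24, and GPS2 by -1.24 (SE 0.22, adjusted p = 0.0192), from -1.01 to 0.22. PPARA differed by 1.32 (SE 0.22, adjusted p = 0.0169), from 1.13 to -0.19. CYP1B1 differed by 1.29 (SE 0.29, adjusted p = 0.039), from 1.44 to 0.16, and RARRES2 by 1.06 (SE 0.18, adjusted p = 0.0187), from 1.06 to -0.005. Replicate 3 had 1 array per peptide. What separates the array sets was not tested.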

How the results depend on the processing

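Median centring, quantile normalization, leaving out the dimmest 25% of probes, all probes of the table, 1 probe per gene and the two-group test without moderation left the number of retinoid genes called at 0 in every comparison in which they were run. The replicate block, fitted on SCR and SID arrays, also gave 0 called probes and 0 members over 3 replicates, and 379 higher and 632 lower in replicates 1 and 2, changing no call of a member. UT arrays did not pair by number with SCR (r = -0.073, -0.015 and -0.059) or SID (0.03, 0.215 and 0.087), and blocked fits there called 0 probes. Array weights, fitted with 1 warning of incomplete convergence, called 324 probes higher and 437 lower in SID than SCR, 1242 and 1147 against UT with SID (1 member, RARB at -1.82), and 1147 and 969 with SCR (2 members, RARB at -1.91 and CRABP2 at 1.59). The array set as a block called 1 probe higher in SID than UT. Comparisons with UT by array set, chosen after seeing the data, called 2 probes higher for SID replicate 3, 1348 higher and 1245 lower with 2 members for SID replicates 1 and 2, and 1280 and 937 with 2 members for SCR replicates 1 and 2. Without 1 array at a time, calls ranged from 0 to 279 higher and 0 to 369 lower for SID against SCR. They ranged from 0 to 917 and 0 to 1029 for SID against UT (0 to 1 members, RARB at -1.79 without SID replicate 3), and from 0 to 615 and 0 to 456 for SCR against UT (0 to 2 members, RARB at -1.70 and CRABP2 at 1.94 without SCR replicate 3). In replicates 1 and 2 they gave 0 to 1 members (CRABP2 at -1.23 without SCR replicate 1).

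Signs turned mostly where a difference was near 0, and the cause was not tested. For SID against SCR over 9 arrays, RARB was 0.0083 and RXRG 0.0205 after centring, and RARB was 0.0819 and CYP26B1 -0.14 with array weights. Without single arrays RARB ranged from -0.42 to 0.32, RARG from -0.21 to 0.10, RXRG from -0.035 to 0.0289, STRA6 from -0.73 to 0.20 and CYP26B1 from -0.0873 to 0.10. For SID against UT, RXRG was -0.0088 after quantile normalization, CRABP2 -0.18 with the set as a block, and RXRB -0.12 for replicate 3 alone and from -0.0118 to 0.19 without single arrays. For SCR against UT, quantile normalization gave RXRG -0.0017 and CYP26A1 -0.0634, array weights gave RXRA -0.16 and CYP26A1 -0.0272, and replicates 1 and 2 gave RXRG -0.0101 and CYP26A1 -0.011. Without single arrays CYP26A1 ranged from -0.0551 to 0.0653, RXRA from -0.0531 to 0.18 and RXRG from -0.0101 to 0.0538. In replicates 1 and 2, CYP26B1 was 0.0248 after centring, and without single arrays RBP5 ranged from -0.31 to 0.0694, AKR1B10 from -0.0633 to 0.64, RARB from -0.27 to 0.0823, RARG from -0.20 to 0.026, RXRG from -0.0101 to 0.047, RBP2 from -0.0147 to 0.23 and CYP26B1 from -0.20 to 0.17.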
